A study of Mus musculus with 12 samples.

Results

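The 10 genes described here encode interleukin 1 family cytokines, their binding proteins and the core of the inflammasome: Il1a, Il1b, Il1rn, Il18, Il18bp, Il1rap, Nlrp3, Casp1, Casp4 and Pycard. They were found on the arrays through the RefSeq accession of each probe, which gave 15 probes, and all 10 genes were among the 19319 genes and transcripts tested (12660 with a symbol). Cells of BV-2, a mouse microglial line made permanent by transformation, were given 20 µM curcumin with 100 ng/ml lipopolysaccharide (LPS, the bacterial ligand of Toll-like receptor 4), LPS alone at that dose, curcumin alone at that dose, or nothing. Treatments lasted 6 h. The labels state no vehicle and no separate cultures, so the p-values measure the spread between the 3 arrays of each group, which may be technical. The cells are 1 established line, which stands in for microglia as a model only.

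Interleukin 1 signalling works in steps. Pattern receptors such as Toll-like receptor 4 switch on transcription of the precursors of interleukin 1 alpha and beta. An inflammasome, built from the sensor NLRP3, the adaptor ASC (gene Pycard) and the protease caspase 1, then cleaves the precursors of interleukin 1 beta and interleukin 18. Interleukin 1 alpha and beta act through a receptor that needs the accessory chain encoded by Il1rap, and are held back by the receptor antagonist (Il1rn). Interleukin 18 is held back by its binding protein (Il18bp). Microglia are a main source of these cytokines in the brain. The arrays measure RNA only, not cleavage or release, and in RNA from whole cultures fewer cells of a kind and less RNA per cell cannot be told apart.

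The promoters of the 4 genes with the largest changes after LPS are shown so that the sequence next to each start can be read beside the values. They are the 250 bases before an annotated start, from RefSeq on build GRCm38.p6, read from 5′ to 3′ on the strand of the gene. Capitals mark matches to the motifs searched.
Il1a, chr2:129309973-129310222, minus strand: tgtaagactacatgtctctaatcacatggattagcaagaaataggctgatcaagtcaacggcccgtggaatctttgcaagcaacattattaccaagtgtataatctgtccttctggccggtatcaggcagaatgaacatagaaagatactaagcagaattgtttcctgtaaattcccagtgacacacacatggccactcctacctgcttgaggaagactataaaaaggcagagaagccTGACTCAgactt
Il1b, chr2:129371140-129371389, minus strand: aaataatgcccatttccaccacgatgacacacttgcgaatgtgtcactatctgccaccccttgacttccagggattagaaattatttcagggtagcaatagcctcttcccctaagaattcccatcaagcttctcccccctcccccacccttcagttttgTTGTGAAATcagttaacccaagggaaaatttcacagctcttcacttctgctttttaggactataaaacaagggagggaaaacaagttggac
Il1rn, chr2:24345121-24345370, plus strand: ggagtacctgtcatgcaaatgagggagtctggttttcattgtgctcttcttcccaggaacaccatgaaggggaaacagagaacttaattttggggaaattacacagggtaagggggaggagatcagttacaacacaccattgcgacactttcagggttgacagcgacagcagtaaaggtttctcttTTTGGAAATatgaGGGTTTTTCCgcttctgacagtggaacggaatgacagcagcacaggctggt
Casp4, chr9:5308599-5308848, plus strand: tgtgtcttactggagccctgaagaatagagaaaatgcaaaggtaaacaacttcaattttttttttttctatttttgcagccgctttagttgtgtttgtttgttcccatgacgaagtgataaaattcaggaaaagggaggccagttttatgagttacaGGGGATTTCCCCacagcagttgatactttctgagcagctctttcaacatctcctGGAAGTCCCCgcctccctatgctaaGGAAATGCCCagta

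Windows of 300 bases, running to 50 bases past the start, were found for all 10 genes (14 windows, because some have several starts) and were searched on both strands for 5 motifs. The NF-kB letters GGGNNNNNCC, where N is any base, occur in 9 of the 14 windows, which belong to Il1rn, Il1rap, Nlrp3, Casp1 and Casp4, and in 50.8% of the 32851 windows of all genes. By gene that is 5 of 10, as overlapping windows of Casp4 and of Il1rn repeat the same matches. In the Casp4 window shown, the runs in capitals are all NF-kB matches and begin 93, 39 and 14 bases before the start, the first run being several overlapping matches. The Il1rn window, at the third of its listed starts, has the C/EBP letters TTNNGNAAT 64 bases and the NF-kB letters 51 bases before the start. The Il1b window holds the C/EBP letters 91 bases before the start. The Il1a window holds the AP-1 letters TGANTCA 12 bases before the start, which read the same on both strands. The AP-1 letters also occur in another Il1rn window, not shown, 141 bases before its start. Among the 10 genes, only Il1b and Il1rn have the C/EBP letters and only Il1a and Il1rn the AP-1 letters. Over all windows, the C/EBP letters occur in 11.5% and the AP-1 letters in 7.8%. The antioxidant response element core TGACNNNGC was matched among these genes only in a window of Nlrp3 (12.4% of all windows), and the ISRE core GAAANNGAAA only in that of Il1rap (3.4%). Il1a and Il1b are next to each other on chromosome 2 among the coding genes of the RefSeq annotation, and so are Casp1 and Casp4 on chromosome 9.

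Before the results, the state of the arrays bears on them. Each array had between 58.0% and 65.9% of spots well above background and none saturated, and slide, scan and replicate number coincide, with 1 array of each group on each of the 3 slides and always at the same position. LPS+curcumin replicate 1 stood apart. Over the genes and transcripts tested, its mean correlation was 0.982 with LPS, 0.976 with untreated and 0.95 with curcumin arrays. With the other arrays of its own group it was 0.944. Replicates 2 and 3 of that group lay closest to the curcumin arrays at 0.984 and 0.985. Of 11 microglia markers on the array, 9 were well above background on all 12 arrays. Of the 5 astrocyte markers, 4 were well above background on no array, and the same held for 2 of 5 neuron, 2 of 4 neutrophil and 2 of 5 T cell markers, while 3 of 5 oligodendrocyte markers were above it on all 12 arrays. The level of a gene is given throughout as log2 of its processed signal minus the 75th percentile of the array, and a log2 fold change is the difference of 2 group means of such levels. Levels of different genes come from different probes and are not compared with each other.

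**Figure D1:**
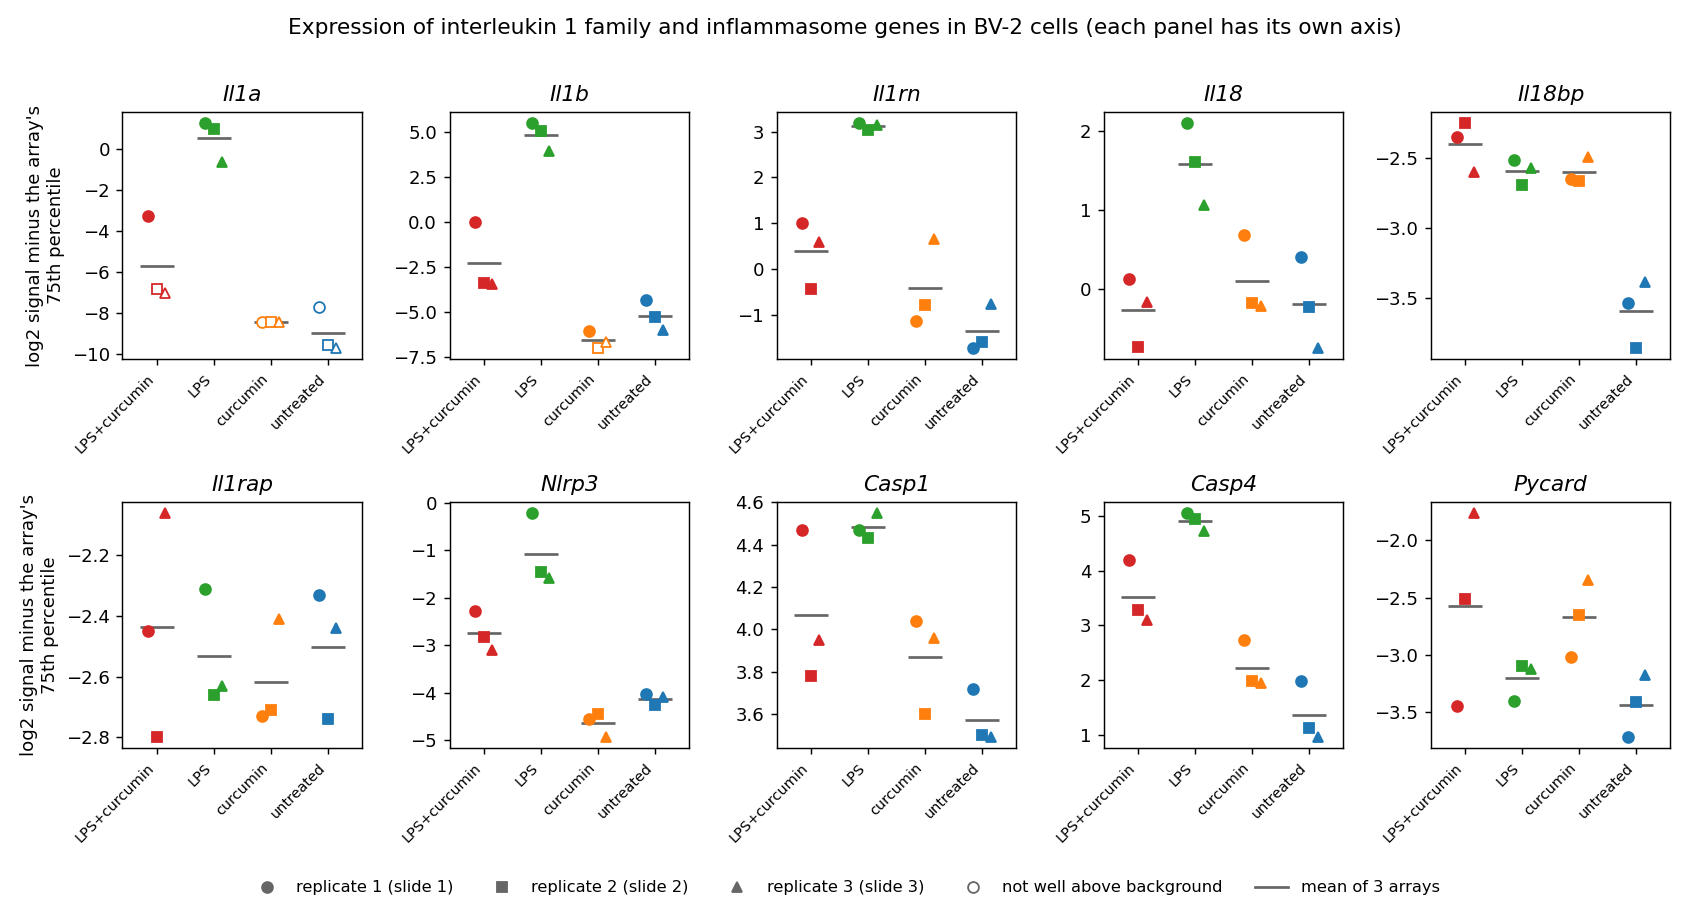
Level of each of the 10 genes on each of the 12 arrays (log2 signal minus the array's 75th percentile), with LPS+curcumin, LPS, curcumin and untreated cells from left to right, marker shape for replicate and slide, open markers for signals not well above background, and bars for means of 3 arrays. Il1a, Il1b, Il1rn, Il18, Nlrp3 and Casp4 have all LPS arrays above all LPS+curcumin arrays, while Il1rap overlaps between all groups.

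Among the ligands, Il1b encodes the main inflammasome-processed cytokine. Its level was -0.05, -3.42 and -3.45 on the 3 LPS+curcumin arrays, 5.45, 5.04 and 3.93 on the LPS arrays, -6.06, -7.02 and -6.71 on the curcumin arrays, and -4.35, -5.28 and -6.05 on the untreated arrays. The LPS arrays lie above all others, LPS+curcumin lies between LPS and the groups without LPS, and curcumin lies below untreated, each group without overlap with the next, though untreated and curcumin barely so. The probe was well above background on 1 of the 3 curcumin arrays and on all arrays of the other 3 groups. It is printed as 10 spots on each array.

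Il1a, whose product acts as a released alarm signal without needing caspase 1, was seen on fewer arrays. It stood at -3.25, -6.81 and -7.03 in LPS+curcumin cells, at 1.22, 0.94 and -0.65 in LPS cells, at -8.43, -8.4 and -8.41 in curcumin cells, and at -7.7, -9.54 and -9.68 in untreated cells. Only the LPS arrays and LPS+curcumin replicate 1 were well above background, so the values of the other 8 arrays only bound the level. Il1a was tested only because all LPS arrays showed it well above background, so its calls in comparisons with that group are partly built in. With no filter it was also called in LPS versus untreated and in LPS+curcumin versus LPS. A second Il1a probe gave calls in the same directions (log2 fold change 9.12 ± 0.95 for LPS versus untreated and -6.88 ± 0.95 for LPS+curcumin versus LPS, SE, n = 3 per group).

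Il18, the other cytokine cut by caspase 1, was measured well above background on every array. It was at 0.12, -0.74 and -0.17 in LPS+curcumin cells, at 2.1, 1.61 and 1.06 in LPS cells, at 0.68, -0.18 and -0.22 in curcumin cells, and at 0.4, -0.23 and -0.75 in untreated cells. The LPS arrays lie above all other arrays, and the other 3 groups overlap. Its 10 spots per array differed with an SD of only 0.02 to 0.07, less than the difference between replicates.

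The antagonist gene Il1rn, which blocks the interleukin 1 receptor, showed levels of 1.01, -0.44 and 0.59 in LPS+curcumin cells, of 3.18, 3.03 and 3.15 in LPS cells, of -1.15, -0.79 and 0.66 in curcumin cells, and of -1.73, -1.6 and -0.77 in untreated cells. The LPS arrays stand close together and above the rest, while curcumin overlaps both LPS+curcumin and untreated. Il18bp, which neutralises interleukin 18 outside the cell, was at -2.35, -2.25 and -2.6 in LPS+curcumin cells, at -2.51, -2.69 and -2.57 in LPS cells, at -2.65, -2.66 and -2.49 in curcumin cells, and at -3.54, -3.86 and -3.39 in untreated cells. Here the untreated arrays lie below all treated arrays and the 3 treated groups overlap. Il1rap, the accessory receptor chain, had means of -2.44 ± 0.37, -2.53 ± 0.19, -2.62 ± 0.18 and -2.5 ± 0.21 in LPS+curcumin, LPS, curcumin and untreated cells (SD, n = 3 each), with all groups overlapping. A second Il1rap probe, for another RefSeq transcript, was well above background on 1 of the 12 arrays and was not tested.

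Of the inflammasome genes, the sensor gene Nlrp3 was at -2.28, -2.83 and -3.1 in LPS+curcumin cells, at -0.21, -1.45 and -1.59 in LPS cells, at -4.56, -4.45 and -4.94 in curcumin cells, and at -4.03, -4.25 and -4.1 in untreated cells. The 4 groups do not overlap and follow the order LPS, LPS+curcumin, untreated, curcumin. Casp4, which in the mouse encodes the caspase-11 protease that binds intracellular LPS, was at 4.2, 3.28 and 3.1 in LPS+curcumin cells, at 5.06, 4.95 and 4.72 in LPS cells, at 2.74, 1.98 and 1.94 in curcumin cells, and at 1.98, 1.12 and 0.95 in untreated cells. Its arrays run in the order LPS, LPS+curcumin, curcumin, untreated, with an overlap only between curcumin and untreated.

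Casp1, the protease that cuts both cytokine precursors, was bright in every group. Its level was 4.47, 3.78 and 3.95 in LPS+curcumin cells, 4.47, 4.43 and 4.55 in LPS cells, 4.04, 3.6 and 3.96 in curcumin cells, and 3.72, 3.5 and 3.49 in untreated cells. LPS lies above untreated without overlap, and LPS+curcumin replicate 1 reaches into the LPS range while its replicates 2 and 3 do not. Pycard, the adaptor gene, was at -3.45, -2.51 and -1.76 in LPS+curcumin cells, at -3.4, -3.1 and -3.12 in LPS cells, at -3.02, -2.65 and -2.35 in curcumin cells, and at -3.72, -3.41 and -3.18 in untreated cells. LPS+curcumin spans the range of all other Pycard arrays except the lowest untreated one. A second Pycard probe was well above background only on 1 LPS+curcumin and 1 curcumin array and was not tested. The array of slide 1 was the highest of its group in all 4 groups for Il1b, Il18 and Casp4 and the lowest for Pycard, so slide moves with these levels.

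In LPS versus untreated cells, which asks what activation does to these genes, 8 of the 10 rose and 0 fell (limma over all 12 arrays, Benjamini-Hochberg adjusted p below 0.05, also below). Over all genes tested, 4.12% rose and 1.61% fell, with a median log2 fold change of 0.005 against a median of 2.41 over the 10 genes. Il1b rose by 10.03 ± 0.82 (log2 fold change ± SE, 3 arrays per group, as for all errors of fold changes; adjusted p = 3.85e-05), which is 1050-fold. Il1a rose at least 239-fold above the limit of detection (fitted log2 fold change 9.48 ± 0.91, adjusted p = 0.000104). The differences between the arrays of a slide were 9.8, 10.32 and 9.99 for Il1b. These differences varied less than the Il1b levels within a group.

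Further rises after LPS were smaller. Il1rn rose by 4.48 ± 0.48 (adjusted p = 0.00022), Casp4 by 3.56 ± 0.36 (0.000133) and Nlrp3 by 3.04 ± 0.35 (0.000335), which is 22.4-fold, 11.8-fold and 8.24-fold. These 3 genes, Il1a and Il1b were called on all 5 ways of scaling the arrays and without any single array. Il18 rose by 1.78 ± 0.38 (adjusted p = 0.0196), Il18bp by 1.01 ± 0.18 (0.00688) and Casp1 by 0.91 ± 0.21 (0.0298), and the LPS array was the higher one on each slide for all 3. Those calls are less firm: on 5 scalings Il18 and Il18bp were called on 3 and Casp1 on 2. Leaving out LPS replicate 1 or 2 or untreated replicate 2 or 3 ended the Il18 call, with adjusted p from 0.0714 to 0.0982. Casp1 lost its call without any one of the LPS or untreated arrays (adjusted p 0.0657 to 0.131) and Il18bp without untreated replicate 2 (0.0506). Il1rap gave a difference of -0.03 (95% interval -0.52 to 0.47) and Pycard one of 0.23 (-0.57 to 1.03), neither past the threshold. Of the 11 microglia markers, P2ry12 fell after LPS, at least 2.54-fold, but was tested only because all untreated arrays showed it well above background. The summed level of the list was 157 to 252 in LPS and 191 to 291 in untreated arrays. The part of these marker differences in the changes after LPS was not tested.

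**Figure D2:**
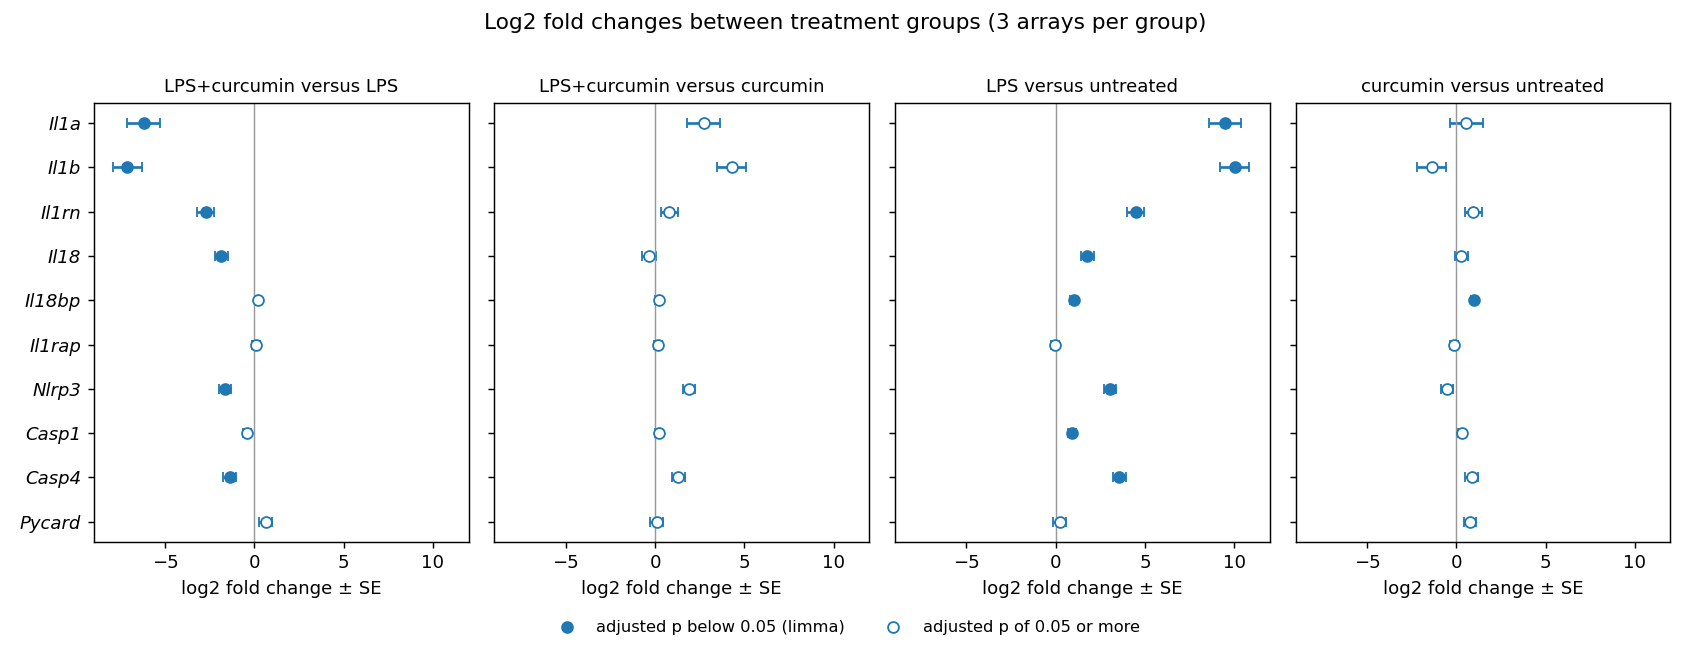
Log2 fold changes with their standard errors for the 10 genes in 4 comparisons, filled where the adjusted p was below 0.05. Adding curcumin to LPS moved 6 genes down, LPS versus untreated moved 8 up, and LPS+curcumin versus curcumin has no filled marker.

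When curcumin was given with LPS rather than LPS alone, 6 of the 10 genes fell and 0 rose. Among all genes tested, 5.99% fell and 12.7% rose, and the median was 0.32 against -1.52 over the 10 genes. Il1b fell by 7.11 ± 0.82 (adjusted p = 8e-04), a 138-fold lower signal, and Il1a fell by 6.2 ± 0.91 (0.00249), with LPS+curcumin replicates 2 and 3 not well above background. The antagonist gene Il1rn fell by 2.73 ± 0.48 (adjusted p = 0.00524), and Il18 fell by 1.85 ± 0.38 (0.0107). Nlrp3 fell by 1.65 ± 0.35 (adjusted p = 0.0111) and Casp4 fell by 1.38 ± 0.36 (0.0252). The 6 genes hold all 3 cytokines and also the antagonist. On every slide the LPS+curcumin array was lower than the LPS array for each of them, with differences of -5.5, -8.45 and -7.39 for Il1b.

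Not all members fell. Casp1 gave a log2 fold change of -0.42 (95% interval -0.89 to 0.05), Pycard 0.64 (-0.17 to 1.44), Il18bp 0.19 (-0.21 to 0.59) and Il1rap 0.09 (-0.4 to 0.59), all short of the threshold. All 6 calls held on the 5 scalings. Casp4 lost its call without LPS replicate 1, 2 or 3 or without LPS+curcumin replicate 2 or 3 (adjusted p 0.0566 to 0.101), and Il18 lost it without LPS+curcumin replicate 2 (0.0537).

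The array that stood apart, LPS+curcumin replicate 1, was the highest of its group for Il1a, Il1b, Il1rn, Il18, Nlrp3, Casp1 and Casp4. Without it, Il1b differed by -8.24 and Il1a by -7.42 from LPS cells, and 7 of the 10 genes fell, Casp1 being added at -0.62 (adjusted p = 0.0169). Pycard then rose by 1.07 (adjusted p = 0.00854). In that fit 14.6% of all genes fell and 40.5% rose. Before scaling, the Pycard signal was 99.7 and 89.7 on LPS+curcumin replicates 2 and 3. On the LPS arrays it was 65.8, 93.2 and 98.4. The 75th percentile was 567.8 and 304.5 on these LPS+curcumin arrays and 693.4 to 856.9 on the LPS arrays. With all arrays fitted, the Pycard difference ran from -0.1 to 0.64 over the 5 scalings. Whether its rise holds on the other scalings was not tested. Without the whole of slide 2 no member passed the threshold, and over all genes only 0.0309% fell and 0.0154% rose in that fit. With only the LPS+curcumin and LPS arrays fitted, Il1a, Il1b, Il1rn and Il18 were called and Nlrp3 and Casp4 were not, beside 1.88% of all genes lower. Microglia markers moved in the same comparison: 4 of the 11 fell (Irf8, Spi1, Tmem119 and Cx3cr1), while the summed level of the list ran from 212 to 365 in LPS+curcumin and from 157 to 252 in LPS arrays, as multiples of the 75th percentile. For neutrophil markers the summed level was 0.0983 to 0.374 and 0.0928 to 0.106 in these groups, with Elane and S100a9 not well above background on any array and no neutrophil marker called. The neuron marker Rbfox3 rose by 1.1 (adjusted p = 0.04), and the summed neuron list ran from 0.207 to 1.08 in LPS+curcumin and from 0.214 to 0.366 in LPS arrays. The part of these cell type markers in the result was not tested.

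**Figure D3:**
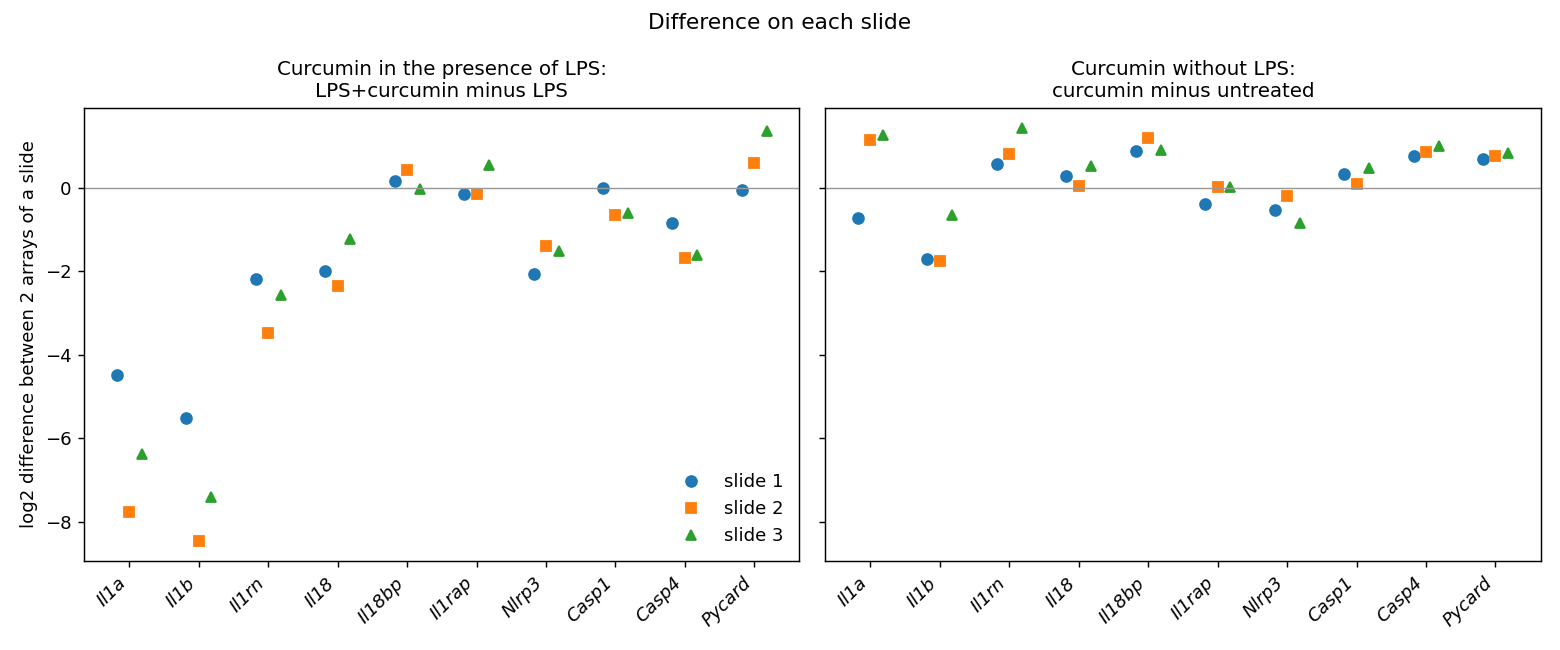
Log2 difference between the 2 arrays of each slide for the 10 genes, LPS+curcumin minus LPS on the left and curcumin minus untreated on the right. With LPS, the 6 genes that fell lie below 0 on all 3 slides, whereas without LPS only Il1b and Nlrp3 do.

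In curcumin versus untreated cells, which asks what curcumin does at rest, 1 of the 10 genes passed the threshold and it rose. Over all genes tested, 21.9% rose and 7.28% fell. Il18bp rose by 1 ± 0.18 (adjusted p = 0.00379), 1.99-fold, and was higher by 0.89, 1.2 and 0.9 on the 3 slides. The Il18bp call held without any single array but on only 2 of the 5 scalings, and its difference was -0.11 when the arrays were scaled by their spike-in controls. Scaling matters in this comparison because the median of all genes was 0.414 under the 75th percentile and -0.69 under the spike-in controls.

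The other 9 genes did not pass the threshold. Il1b differed by -1.37 ± 0.82 (adjusted p = 0.201), with 2 of 3 curcumin arrays not well above background, and was lower on each slide, by -1.71, -1.74 and -0.65. Nlrp3 differed by -0.52 ± 0.35 (adjusted p = 0.243), and was called lower on 3 of the 5 scalings, where its difference reached -1.63. These were quantile, median and spike-in scaling, on which 10.4%, 25.1% and 43.3% of all genes were lower. Casp4 differed by 0.87 ± 0.36 (adjusted p = 0.0809) and Pycard by 0.77 ± 0.36 (0.119). With slide as a block in the fit both passed the threshold (0.01 and 0.0362), beside 31.2% of all genes that rose in that fit, while their differences were -0.23 and -0.34 on spike-in scaling. Il1rn gave 0.94 (95% interval -0.12 to 2), Casp1 0.3 (-0.17 to 0.77), Il18 0.28 (-0.56 to 1.13) and Il1rap -0.11 (-0.61 to 0.38). On spike-in scaling alone of the 5, Il1rap was called lower at -1.21, beside 43.3% of all genes lower. Il1a was below detection in both groups and no fold is given. Leaving out 1 array brought Casp4 to the threshold without LPS+curcumin replicate 1 (adjusted p = 0.0299) or untreated replicate 1 (0.05), Pycard without LPS+curcumin replicate 1 (0.0262) or 3 (0.0406), and Il1b without LPS+curcumin replicate 1 (0.032), an array that enters here through the shared estimate of spread. Over all genes, 37% rose and 12.5% fell without LPS+curcumin replicate 1, 36.4% rose without LPS+curcumin replicate 3 and 12.9% rose without untreated replicate 1. With only the curcumin and untreated arrays fitted, 4 of 9 members tested passed (Il18bp and Pycard higher, Il1b and Nlrp3 lower), beside 40.9% of all genes higher and 14.4% lower. Of the microglia markers, Irf8, Tmem119 and Cx3cr1 fell in curcumin cells, and the summed level of the list was 261 to 358 in curcumin and 191 to 291 in untreated arrays. Both neutrophil markers tested, S100a8 and Mpo, rose in curcumin cells, with summed levels of that list of 0.311 to 0.432 in curcumin and 0.0803 to 0.0941 in untreated arrays. The neuron marker Rbfox3 rose by 1.16 (adjusted p = 0.0246) and the T cell marker Cd3e by 0.91 (0.0399). Mpo was called on all 5 scalings, but S100a8, Rbfox3 and Cd3e on 2 each. On spike-in scaling these 3 gave -0.15, 0.06 and -0.19. The part of these markers in the differences was not tested.

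**Figure D4:**
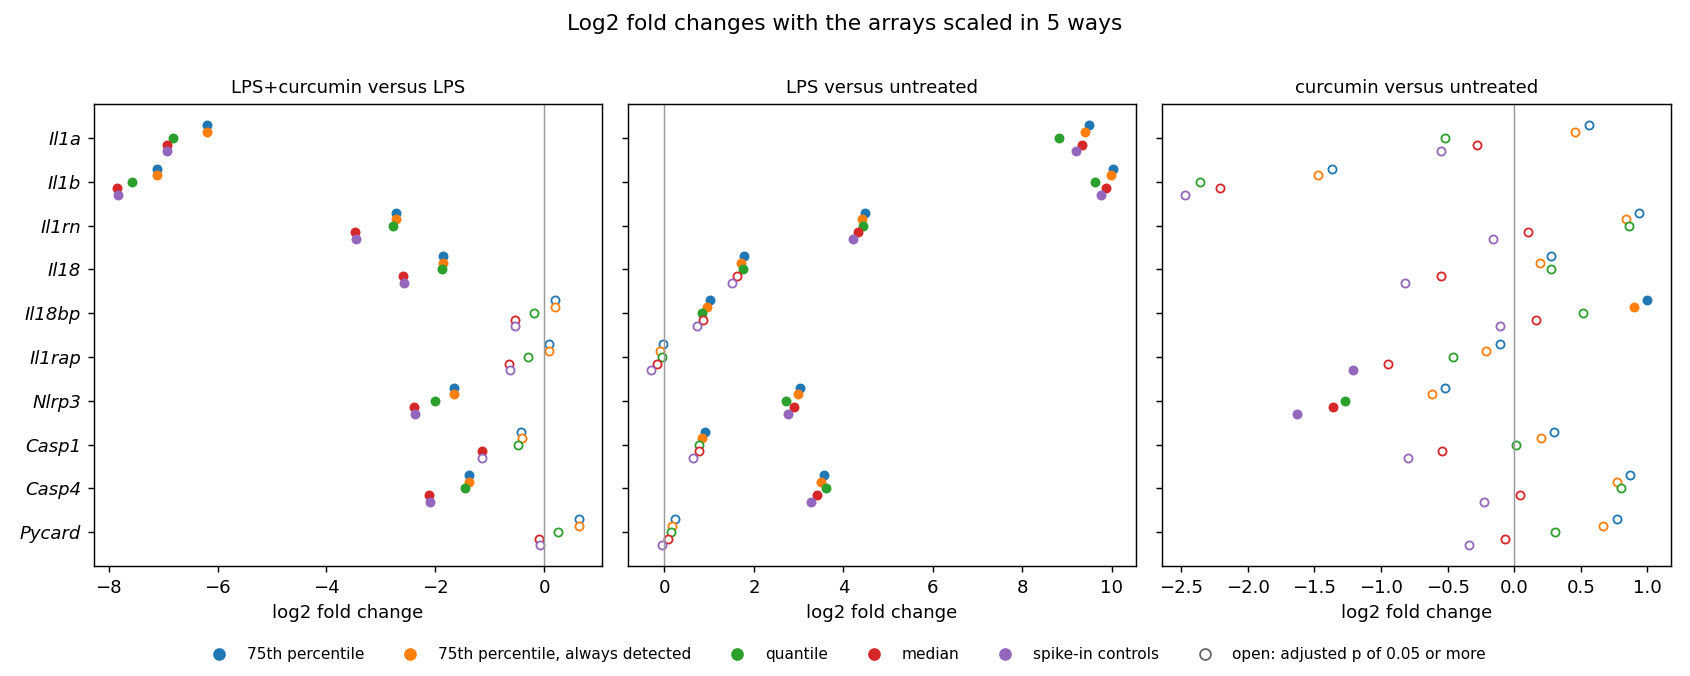
Log2 fold changes of the 10 genes with the arrays scaled in 5 ways, for LPS+curcumin versus LPS, LPS versus untreated and curcumin versus untreated, filled where the adjusted p was below 0.05. The 6 falls with added curcumin are filled under all 5 scalings, whereas in curcumin versus untreated the sign of 7 genes depends on the scaling, Il1a among them though it was below detection.

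Whether LPS still acted on these genes in the presence of curcumin is the comparison of LPS+curcumin with curcumin. None of the 10 passed the adjusted threshold in limma, and 4 had an unadjusted p below 0.05 (Il1a, Il1b, Nlrp3 and Casp4). Few genes of any kind passed the adjusted threshold: 0.202% of all tested rose and 0.0104% fell. The share of all genes with an unadjusted p below 0.05 is not given, so the 4 cannot be set against it. Il1b gave 4.29 ± 0.82 (adjusted p = 0.0937), Nlrp3 1.91 ± 0.35 (0.074) and Casp4 1.31 ± 0.36 (0.443), with all 3 LPS+curcumin arrays above all 3 curcumin arrays and the LPS+curcumin array higher on each slide. For Il1b the slide differences were 6.01, 3.61 and 3.25. With slide as a block, Il1b (adjusted p = 0.013), Nlrp3 (0.0268) and Casp4 (0.0355) were called higher, beside 0.321% of all genes. Without LPS+curcumin replicate 1, Il1b was called at 3.16 (0.0305), beside 0.327% of all genes. Without LPS+curcumin replicate 3, Il1b (0.0385) and Nlrp3 (0.0378) were called, beside 0.559% of all genes higher, and Nlrp3 was also called without LPS replicate 1 (0.0143), beside 0.148%. Il1a (adjusted p = 0.639) was well above background on 1 LPS+curcumin array and on no curcumin array, and no fold is given. Il18, which LPS alone raised, gave -0.35 (95% interval -1.2 to 0.49), and Il1rn gave 0.81 (-0.25 to 1.87). Il18bp gave 0.2 (-0.2 to 0.6), Casp1 0.2 (-0.27 to 0.67), Il1rap 0.18 (-0.32 to 0.67) and Pycard 0.1 (-0.7 to 0.9).

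The interaction subtracts the change that curcumin made in resting cells from the change it made in LPS-treated cells, and so tests whether both differ. It was called for 2 of the 10 genes, both lower, beside 0.709% of all genes lower and 0.0207% higher. Il1rn gave -3.67 ± 0.68 (adjusted p = 0.0366) and Il1a -6.76 ± 1.29 (0.0412), but Il1a was well above background on no curcumin or untreated array, so its value restates the difference between LPS+curcumin and LPS and is no test of a differing response. Il1b at -5.74 ± 1.16 (adjusted p = 0.055) and Casp4 at -2.25 ± 0.51 (0.0918) missed the threshold. Both calls depended on single arrays: leaving out 1 array in turn, Il1a kept its call only without untreated replicate 1, LPS replicate 3 or LPS+curcumin replicate 1, and Il1rn only without curcumin replicate 1 or LPS+curcumin replicate 1, with adjusted p up to 0.144 and 0.12 otherwise. Without LPS+curcumin replicate 1, Il1a, Il1b, Il1rn and Casp4 were called, beside 1.99% of all genes lower. With slide as a block, Il18 joined these 4 (adjusted p from 0.00568 to 0.0185), beside 1.11% of all genes. Il1b was dim without LPS, at a mean of -5.23 in untreated cells and well above background on 1 of 3 curcumin arrays. A resting change as large as its -7.11 between LPS+curcumin and LPS could not have been measured. The Il1b interaction, called or not, therefore largely restates that difference.

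The other ligands and receptors of the interleukin 1 family were mostly dim. Of 12 on the array, 4 were well above background on no array, and 7 were tested. After LPS 2 of the 7 rose, beside 4.12% of all genes, both ligands of the interleukin 36 group that were below detection in untreated cells: Il1f6 at least 18.5-fold (adjusted p = 0.000158) and Il1f9 at least 1.94-fold (0.033). Il1f9 lost its call on 3 of the 5 scalings and in 8 of the 12 fits without 1 array. With curcumin added to LPS, Il1f6 fell by 4.31 ± 0.66 (adjusted p = 0.00282). Il1r1, the signalling receptor, fell by 2.18 ± 0.63 (0.037) and Il18rap, an accessory chain for interleukin 18, by 1.12 ± 0.28 (0.0237), while the decoy receptor gene Il1r2 rose by 2.32 ± 0.7 (0.0416). Il1f6 and Il1r1 were well above background on 1 of the 3 LPS+curcumin arrays, so the size of their falls rests partly on background signal. Il1f6, Il1r1 and Il1f9 were tested only because all LPS arrays showed them well above background. The 2 rises after LPS and the falls of Il1f6 and Il1r1 are therefore partly built in. Il1r2 also rose in curcumin versus untreated cells, by 2.31 ± 0.7 (adjusted p = 0.0316). Both Il1r2 calls held on 2 of the 5 scalings, and in 1 and 6 of the 12 fits that left out 1 array, against 6 for Il1r1 and 9 for Il18rap. The mean level of Il1r2 was -4.27 in LPS+curcumin, -6.59 in LPS, -3.4 in curcumin and -5.72 in untreated cells.

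Among 22 tested genes of other inflammasome sensors, regulators and pyroptosis, 4 rose and 1 fell after LPS (4.12% and 1.61% of all genes did), and 7 fell and 0 rose when curcumin was added to LPS (5.99% and 12.7% of all genes did). The interferon-induced GTPase genes Gbp2 and Gbp5, which act in the sensing of bacterial LPS in the cytosol, rose by 7.88 ± 0.86 and 7.53 ± 0.7 (adjusted p = 0.000229 and 8.57e-05) after LPS. With curcumin added to LPS, Gbp2 fell by 4.95 ± 0.86 (0.00478) and Gbp5 fell by 4.68 ± 0.7 (0.00253). Trim30a, a regulator of the Nlrp3 inflammasome in the mouse, rose by 5.74 ± 0.83 (0.0015) and fell by 5.83 ± 0.83 (0.00216). Trim30a was well above background on 1 of 3 LPS+curcumin and 2 of 3 untreated arrays, so both of its sizes rest partly on background signal. Trim30a was tested only because all LPS arrays showed it well above background, so both of its calls are partly built in. The calls of these 3 genes held on all 5 scalings and without any single array in both comparisons. Nlrc4, another inflammasome gene, fell by 1.13 ± 0.22 (adjusted p = 0.00811) with added curcumin and by 0.92 ± 0.22 (0.0132) with curcumin alone. Nlrp10 fell by 1.37 ± 0.25 (0.00606) and fell by 2.15 ± 0.25 (0.000596) in the same comparisons. After LPS, Nlrp10 was the gene that fell, by 1.06 ± 0.25 (0.0306), and Mefv rose by 1.57 ± 0.41 (0.0473). Those 2 calls held on 2 and 1 of the 5 scalings and in 6 and 2 of the 12 fits without 1 array. With curcumin alone, 0 of the 22 rose and 2 fell, beside 21.9% and 7.28% of all genes.

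Downstream of the receptor, 4 of 12 signalling genes rose after LPS and 0 fell, beside 4.12% and 1.61% of all genes. They were the kinase genes Irak2 and Irak3 (log2 fold changes 1.79 and 2.54), the ubiquitin ligase gene Peli1 (1.67) and the adaptor gene Myd88 (0.84), with adjusted p from 0.0126 to 0.0346. None of these 4 was called on all 5 scalings, and Irak2, Myd88, Peli1 and Irak3 were called in 3, 5, 7 and 10 of the 12 fits without 1 array. With curcumin added to LPS, Irak3, a brake on this pathway, fell by 2.8 ± 0.51 (adjusted p = 0.00595) and Myd88 by 0.63 ± 0.2 (0.0465), and both were called on all 5 scalings. Myd88 kept that call in 2 of the 12 fits that left out 1 array. In curcumin versus untreated cells Irak1 and Map3k7 rose by 0.63 and 0.59 on the 75th percentile scaling, but gave -0.47 and -0.51 on spike-in scaling.

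The genes outside the list whose levels followed Il1b most closely over the 12 arrays were Bcl2a1c (Pearson r = 0.987), Gbp3 (0.984), Oasl2 (0.983), Marcksl1 and Cd69 (0.982 each). For Nlrp3 they included Birc3 (0.986), Cish (0.98), Icam1 (0.976) and Nod2 (0.971). These are descriptions over arrays that fall into treatment groups and share slides, picked as the highest of all tested genes with a symbol.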

How the data were processed

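Cy3-labelled cRNA of 12 BV-2 samples was measured on Agilent arrays of 1 colour, per the labels' protocols. The deposited files give linear intensities per spot, background-subtracted by Feature Extraction 10.5.1.1 per the file headers (9.1 per the submitters' processing notes). The authors' value table holds the same intensities within 0.397%. Each array has 45018 spots, 1639 of them controls. The number of arrays limits the precision.

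Levels were log2 of the processed signal minus the 75th percentile of the array over non-control spots. Outlier spots were dropped, spots of a probe averaged, and the probe with the highest mean stood for a gene. Genes were tested where every array of some group showed them well above background, with limma 3.58.1 in R 4.3.3 (4 group means, lmFit and eBayes, two-sided, Benjamini-Hochberg over 19319). For changes written as at least N-fold, the dim group's arrays were set to the lowest detected signal, or to the probe's signal where that was higher. Errors are SE with 3 arrays per group. The fit was tested on simulated data. Probes were named through RefSeq (GRCm38.p6), matching 25097 of 41174 probes, and the arrays' design gives build mm9, so the promoter windows are the only coordinates printed and carry their own build. Figures were drawn with matplotlib 3.10.9.

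The genes, lists and tests were chosen with earlier results of these data known. All 10 genes are reported in every comparison, and from each further list at most 5 called genes per comparison, by smallest adjusted p. For Il1b and Nlrp3, the 5 genes with the highest Pearson r over the arrays were taken, and 1 of these is not reported here. Same-slide arrays deviated from their group means together in 16 of 18 pairs (correlation over 0.1, range -0.019 to 0.713), and slide was used as a block in an alternative fit. Normexp background correction, planned on mean signals, was run on median signals because the files used here give those. Other alternatives were the scaling, the filter, outlier flags, probe averaging, the value table, fitting only the groups compared, and leaving out arrays.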

Additional observations from a re-analysis of the deposited data

Results flagged for a closer look

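Results singled out here are genes whose response to curcumin differed between cells with and without LPS, by the test of that difference, and which were measured above background without LPS. Il1rn gave -3.67 ± 0.68 on the log2 scale (limma, adjusted p = 0.0366) and had this sign on each of the 3 slides. Among the genes of the further lists, Gbp5 gave -5.83 ± 0.99 (adjusted p = 0.021). Gbp5 was dim without LPS, with a mean level of -5.86 in untreated and -4.7 in curcumin cells. A change as large as the -4.68 between LPS+curcumin and LPS could not have been measured there, which limits its test. Il1rn and Gbp5 were both called on 2 of 5 scalings. Leaving out 1 array in turn, Il1rn was called in 2 and Gbp5 in 4 of 12 fits, with adjusted p up to 0.12 and 0.0827.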

How the results depend on the processing

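Over all alternatives and the 5 comparisons, single-gene results kept direction and side of the threshold 1350 times, lost a call 90 times, gained one 37 times and turned a called sign once, for Il18bp in curcumin versus untreated cells under spike-in scaling (-0.11). Of 10 genes, LPS versus untreated cells gave 8 calls, but 5 under median scaling, 5 under spike-in scaling and 4 under normexp. Curcumin versus untreated gave 1 (Il18bp, higher), but 2 under spike-in scaling (Nlrp3 and Il1rap, both lower). It gave 0 under normexp and 4 (of 9 tested) with only the groups compared. Under quantile and median scaling the 1 call was Nlrp3, lower. LPS+curcumin versus LPS gave 6, but 2 under normexp (Il1b and Il1rn) and 4 with only the groups compared (Il1a, Il1b, Il1rn and Il18). LPS+curcumin versus curcumin gave 0, but 1 with a filter for signals well above background on all 12 arrays (8 tested). The interaction gave 2, but 0 under quantile, median and spike-in scaling, normexp and no filter, and 1 with always detected probes or the filter on all 12 arrays. With the replicate block, which here is the slide, calls were 8 for LPS versus untreated, 3 for curcumin versus untreated, 6 for LPS+curcumin versus LPS, 3 for LPS+curcumin against curcumin alone and 5 for the interaction. Leaving out 1 array or 1 slide, calls ran from 4 to 8, from 0 to 4, from 0 to 8, from 0 to 2 and from 0 to 4 in the same order. Calls over all genes tested moved with the settings as well. After LPS, 796 of 19319 rose in the fit used above, 443 under median scaling, 361 under spike-in scaling and 181 under normexp. With curcumin added to LPS, 1158 fell, but 72 under normexp and 338 of 18013 with only the groups compared. In curcumin versus untreated cells 4228 rose, but 1396 under spike-in scaling and 748 under normexp, while 1406 fell, but 8360 and 130 under these settings. For the interaction 137 fell, but 66 under quantile, 68 under median and 52 under spike-in scaling and 2 under normexp. The causes were not tested. Only-the-groups-compared fits give no interaction. Il1a in curcumin and untreated cells and most Il1b signals in curcumin cells lie at background, which limits folds against them, and position on the slide cannot be told apart from group.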
